A study of Mus musculus with 4 samples.

Results

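*H2-Ab1*, *H2-DMb1* and *H2-Ob* are the 3 MHC class II pathway genes described here, out of 515 genes in a table that compares WT with *Areg*-/- Th9 cells. They were chosen by gene symbol from that table with their values already known, as the beta chain of a class II molecule and the beta chains of its peptide-loading partners DM and DO. Th9 cells are CD4+ T helper cells that produce IL-9. They were made in culture over 3 days from naïve CD4+ T cells activated through CD3 and CD28 with TGF-β1 and IL-4. The study sequenced polyA RNA of 2 WT and 2 *Areg*-/- samples, all of strain C57BL/6, from mice of 6 to 12 weeks that were matched for age and sex. *Areg*-/- mice lack amphiregulin, a ligand of the EGF receptor, in all their cells, so any cell in the culture lacks it too. The comparison asks which transcripts of Th9 cells differ without amphiregulin.

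MHC class II molecules carry peptides from digested proteins to the cell surface, where CD4+ T cells recognise them. Each is a pair of an alpha and a beta chain whose peptide groove is blocked by the invariant chain, until DM exchanges the last piece of that chain for an antigenic peptide, while DO restrains DM. B cells, dendritic cells and macrophages are the classical producers, and mouse T cells, unlike activated human T cells, are generally found to make little class II of their own. The master switch of the pathway is the coactivator CIITA, which acts on promoters that hold a pair of sequence elements called the X box and the Y box.

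The authors' deposited table gives 1 FPKM value (mapped fragments scaled to transcript length and library size) per genotype, and none per sample. The table also holds the authors' own tests, which were not used here, and no new test or interval can be made from 1 value per genotype. The depth behind each FPKM value is not shown in the table. All 515 genes in the table are marked as called by the authors, so a gene outside it has no value here, whether it was unchanged, undetected or left out. The share of all annotated genes that is in the table was not computed. The number of genes of a list found in it is therefore not a result about that list. The table names the WT group as one without doxycycline and says nothing of it for the knockout group. It was assumed that this column belongs to the 2 WT samples, on which every ratio rests. The cells were a bulk culture, in which more cells of a type and more RNA per cell cannot be told apart.

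The promoters of the members are given first, since class II genes are known to be switched on through elements in them. RefSeq windows on GRCm38.p6, from 250 bases before to 50 after the start, were given for *H2-DMb1* and *H2-Ob*, and not for *H2-Ab1*. Both windows hold an X box core, spelled CCNAGNNAC, on the strand of the gene, followed by a reversed Y box, the CCAAT motif read as ATTGG. *H2-Oa*, which encodes the alpha chain of DO and is not in the table, holds the same pair and is shown beside them. The X box cores, in capitals, are given first and the Y boxes, in capitals, after them, each 5′ to 3′ on the plus strand. The *H2-DMb1* pieces are at chr17:34153090-34153111 and chr17:34153125-34153139. The *H2-Ob* pieces are at chr17:34238811-34238832 and chr17:34238843-34238857, and those of *H2-Oa* at chr17:34092296-34092317 and chr17:34092331-34092345.
H2-DMb1 X box: ttaCCTAGTAACtgatgatgct
H2-Ob X box: ctgCCTAGCAACaaatgatgca
H2-Oa X box: ttgCCCAGCAACaaacccatta
H2-DMb1 Y box: cagtgATTGGtctga
H2-Ob Y box: tcttgATTGGttaac
H2-Oa Y box: ctctgATTGGctgct

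The X box core starts at position -98 in *H2-DMb1*, -91 in *H2-Ob* and -80 in *H2-Oa*, counted from the RefSeq start. The Y box follows after 37, 34 and 37 bases, counted from the start of one element to the start of the other. The spacing of the elements was thus within 3 bases across the 3 promoters. Only pairs with starts within 40 bases of each other were searched for, so a wider spacing could not appear. In GENCODE the first exon of *H2-DMb1* starts further upstream, at 34153072, so that its elements lie inside that exon by one annotation and before the start by the other. For *H2-Ob* both annotations place them upstream. The 150 bases before the GENCODE start of *H2-Ob*, chr17:34238753-34238902 on the plus strand, show both elements, in capitals, in their place.
H2-Ob promoter: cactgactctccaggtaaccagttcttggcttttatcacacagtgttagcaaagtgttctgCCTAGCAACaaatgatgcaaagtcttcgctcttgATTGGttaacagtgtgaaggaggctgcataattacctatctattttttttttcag

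Each element alone is common. Of 32851 promoter windows, 17.3% hold the X box core and 37.4% the Y box on either strand. An X box core and a Y box with starts within 40 bases of each other, on any strand, are in 2.003% of the windows. The order seen in the members, an X box core on the strand of the gene and then ATTGG within 40 bases, is in 89 windows, or 0.271%, a search that was set after the members' matches were seen. Of 11 class II chain and chaperone genes looked for, 8 had a window and 3 of them held the pair, namely *H2-DMb1*, *H2-Ob* and *H2-Oa*. The windows of *H2-Aa*, *H2-DMa*, *H2-DMb2*, *H2-Eb1* and *H2-Eb2* hold no such pair of these letters. The short motif TGACG, searched for as part of the X2 box, is in 20.8% of all windows and in neither member. These matches are letters in a window, and binding of a factor was not measured.

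**Figure D1:**
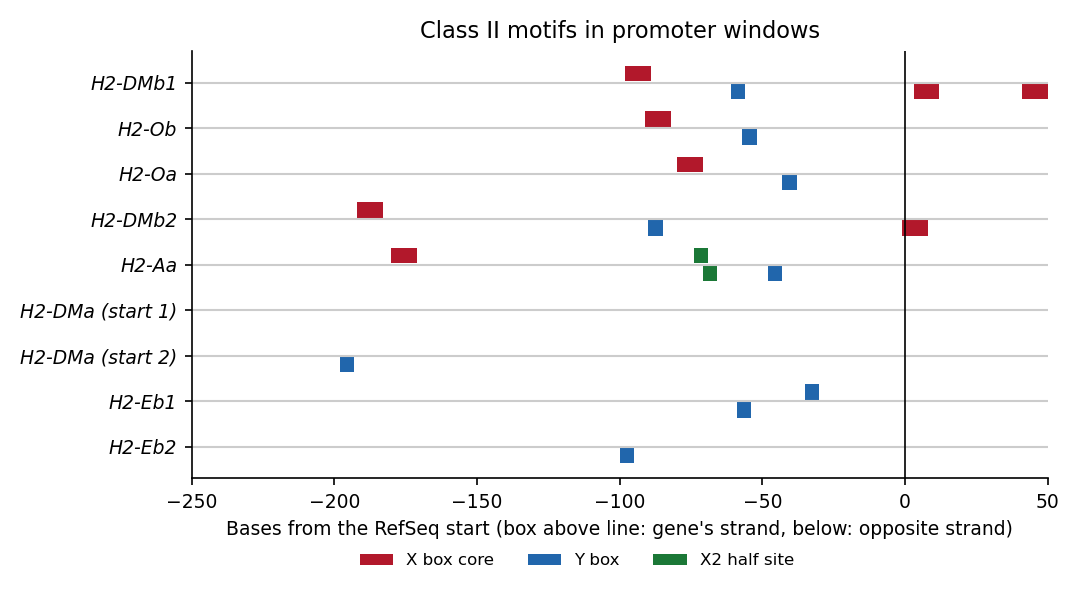
Positions of the X box core, the Y box and the X2 motif TGACG in the RefSeq promoter windows of 8 class II genes, in bases from the start; boxes above a line lie on the strand of the gene and those below on the opposite strand. In *H2-DMb1*, *H2-Ob* and *H2-Oa* an X box core at -98, -91 and -80 is followed by a reversed Y box at -61, -57 and -43.

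The value of each of the 3 members was higher in *Areg*-/- than in WT Th9 cells. *H2-Ab1*, the beta chain of the class II molecule I-A, was at 16.0 FPKM in WT cells and at 26.1 FPKM without amphiregulin. This is 1.63-fold higher, a log2 ratio of *Areg*-/- over WT of 0.70 without a pseudocount. *H2-DMb1*, one of the genes for the beta chain of DM, was at 1.27 FPKM in WT cells and at 3.08 FPKM in *Areg*-/- cells. It was 2.42-fold higher, a log2 ratio of 1.27, the highest of the 3. *H2-Ob*, the beta chain of DO, was at 1.48 FPKM in WT cells and at 3.31 FPKM in *Areg*-/- cells. It was 2.24-fold higher, a log2 ratio of 1.16. Since the members were picked for being higher, these values are a description and no test was made of them.

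Of all genes in the table, 69.1% had a higher value in *Areg*-/- cells, and the direction of the members is that of most listed genes. *H2-DMb1* and *H2-Ob* were over 2-fold higher and *H2-Ab1* was not, so that 2 of 3 members passed this limit beside 25.2% of all listed genes. All 3 members were over 1.5-fold higher, beside 53.6% of the listed genes. The median log2 ratio of the 3 members, which were picked for being higher, is that of *H2-Ob*, 1.16. The median of the table, lower genes included, was 0.62, and that of its 356 higher genes was 0.82. By log2 ratio from the highest, *H2-DMb1* stood at position 73, *H2-Ob* at 98 and *H2-Ab1* at 223 of 515.

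The order of the ratios was the reverse of the order of the levels. *H2-Ab1* was at position 161 of 515 by its WT value, whereas *H2-Ob* and *H2-DMb1* were at 428 and 440, among the lowest listed genes. The WT value is the denominator of the ratio, so level and ratio are not independent. The table also holds called genes only, and the part of either in this order was not tested. The 173 higher genes below 5 FPKM in WT had a median log2 ratio of 1.15, with quartiles of 0.87 and 1.47, a split at 5 FPKM that was made after the values were seen. *H2-DMb1* and *H2-Ob* lie within these quartiles. The 183 higher genes at or above 5 FPKM in WT had a median of 0.63, with quartiles of 0.52 and 0.79, between which *H2-Ab1* lies. Each member therefore lay within the middle of the higher listed genes of its own range of level. The plot of all genes shows the same, with the members inside the band of higher genes.

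**Figure D2:**
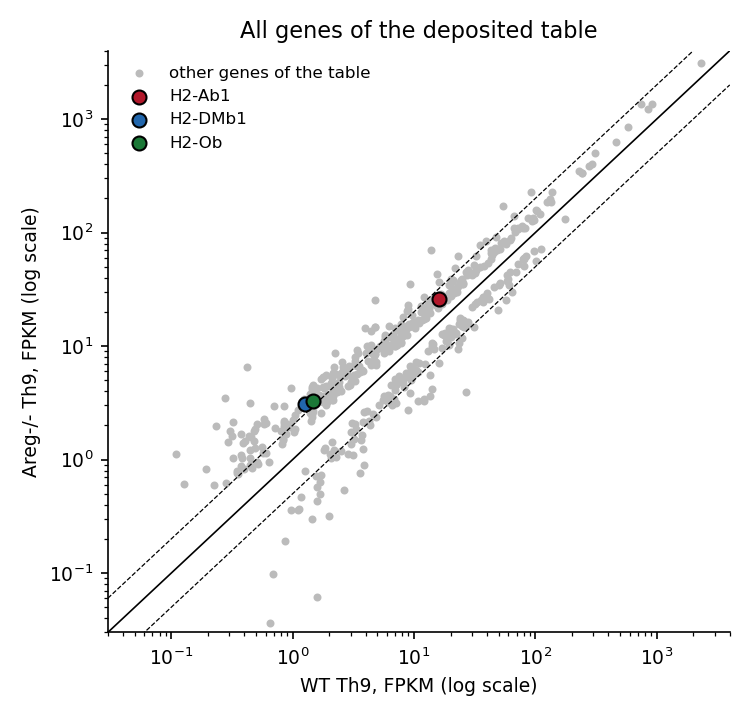
FPKM in *Areg*-/- against WT Th9 cells for all 515 genes of the table, on log axes, 1 value per genotype; the solid line marks equal values and the dashed lines a 2-fold difference. *H2-DMb1* and *H2-Ob* lie just above the upper dashed line at low levels, and *H2-Ab1* between the solid and the upper dashed line at a higher level.

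In absolute terms *H2-Ab1* made up most of the difference. Its value was 10.1 FPKM higher in *Areg*-/- cells, against 1.81 FPKM for *H2-DMb1* and 1.83 FPKM for *H2-Ob*. Summed over the 3 members, the level was 18.8 FPKM in WT and 32.5 FPKM in *Areg*-/- cells, of which *H2-Ab1* held 85.4% and 80.3%. FPKM is scaled to transcript length, so levels can be set side by side between genes. *H2-Ab1* was at 12.6 times the level of *H2-DMb1* in WT and at 8.47 times in *Areg*-/- cells. Against *H2-Ob* it was at 10.8 times in WT and at 7.89 times in *Areg*-/- cells. *H2-Ob* and *H2-DMb1*, the beta chains of the DM inhibitor DO and of DM, had nearly equal levels, with a ratio of 1.16 in WT and 1.07 in *Areg*-/- cells. With 1 value per genotype, these ratios have no error, and neither their change between genotypes nor the difference between neighbouring levels could be tested.

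The value of *H2-DMb1* is less certain than that of the other members, since a close copy lies beside it. The mouse has a second gene for the DM beta chain, *H2-DMb2*, which is not in the table. The coding sequences of *H2-DMb1* and *H2-DMb2*, each 786 bases long in GENCODE, were 95.9% identical in a global alignment. Of the 737 stretches of 50 bases in the coding sequence of *H2-DMb1*, 353 or 47.9% occur unchanged in *H2-DMb2*. Reads from these stretches cannot be placed in one gene by their sequence alone. The study names HTSeq-count for the counting and Cuffdiff for the normalization and comparison. It does not state how such reads were treated in either step. The longest run common to both covers 221 bases in exon 3 of *H2-DMb1*, chr17:34157299-34157519 of GRCm38 on the plus strand, bases 391 to 611 of the coding sequence. It is shown because a read within it cannot tell the copies apart by its own sequence. The study's reads were paired, and a mate outside the run may differ between the copies.
Shared by H2-DMb1 and H2-DMb2: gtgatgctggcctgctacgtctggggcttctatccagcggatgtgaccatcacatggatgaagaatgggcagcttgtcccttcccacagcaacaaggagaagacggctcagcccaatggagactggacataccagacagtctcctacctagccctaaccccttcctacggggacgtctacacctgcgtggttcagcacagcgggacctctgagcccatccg

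*H2-Ab1* and *H2-Ob* shared 0 such stretches with the other beta chain genes compared. Of the 4 genes that *H2-Ab1* was compared with, *H2-DMb1*, *H2-DMb2*, *H2-Ob* and *H2-Eb1*, the most similar was *H2-Eb1*, the beta chain of the other class II molecule, I-E, with coding sequences that were 72.4% identical. Their longest common run is 37 bases in exon 2 of *H2-Ab1*, chr17:34264888-34264924 of GRCm38 on the plus strand, shown for comparison with the run above.
Shared by H2-Ab1 and H2-Eb1: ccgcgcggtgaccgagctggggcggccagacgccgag
*H2-Ob* was 62.8% identical to *H2-Eb1* and 60.9% to *H2-Ab1*. Between the members, *H2-DMb1* was the most distant, with 49.3% identity to *H2-Ab1* and 49.5% to *H2-Ob*.

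**Figure D3:**
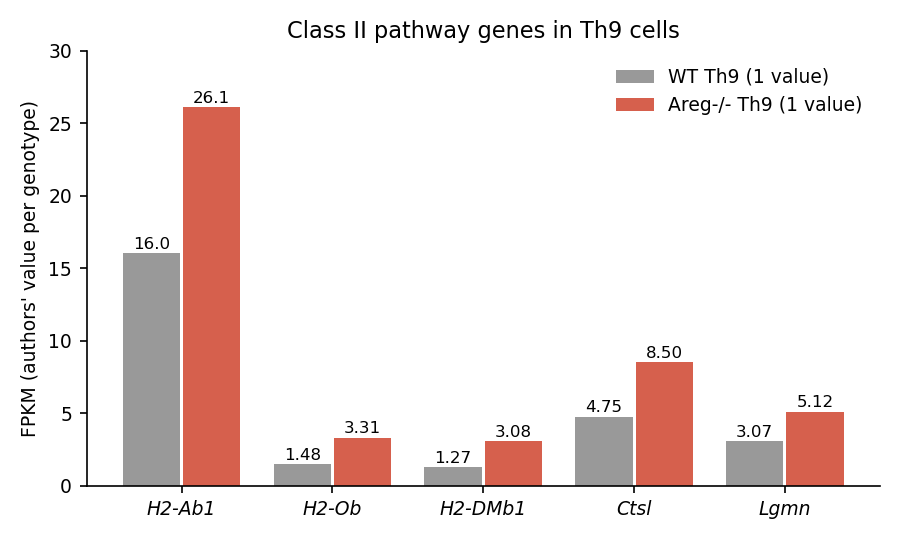
FPKM of the 5 class II pathway genes in the table, as bars from 0 with 1 value per genotype and no error bars, since no value per sample was given. Each value is higher in *Areg*-/- Th9 cells, and *H2-Ab1*, at 16.0 and 26.1 FPKM, is the highest in both genotypes.

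Of the other 26 genes in the list of the class II pathway, 2 were in the table, and both had a higher value in *Areg*-/- cells. They encode lysosomal proteases that cut antigens and the invariant chain. *Ctsl*, which encodes cathepsin L, was at 4.75 FPKM in WT cells and at 8.50 FPKM in *Areg*-/- cells, a log2 ratio of 0.84. *Lgmn*, which encodes legumain, an asparaginyl endopeptidase, had 3.07 and 5.12 FPKM, a log2 ratio of 0.74. Both proteases also act in cells without class II. Higher values were the rule in the table, at 69.1% of listed genes, so this count of 2 says little on the pathway.

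The partners of the members were not in the table. None of the alpha chain genes *H2-Aa*, *H2-DMa* and *H2-Oa*, with which the products of *H2-Ab1*, *H2-DMb1* and *H2-Ob* pair, was among the 515 genes, nor were *H2-Eb1* or *Cd74*, which encodes the invariant chain. Of 8 transcription factor genes of the pathway, among them *Ciita* and *Rfx5*, 0 were listed, and of 3 genes that control the turnover of class II at the surface, 0 were listed. Whether these genes moved with their partners cannot be read from this table.

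Interferon-γ is the best known inducer of *Ciita*. Of 10 genes of its axis, 1 was in the table, and it was lower in *Areg*-/- cells. This is *Tbx21*, the transcription factor T-bet that drives *Ifng* in T helper 1 cells, with 51.1 FPKM in WT and 35.7 FPKM in *Areg*-/- cells, a log2 ratio of -0.52. *Ifng* and *Irf1* were not listed. Of 17 genes listed for the class I pathway, which is induced by the same cytokine, 0 were in the table. Another class I gene outside that list, *H2-Q10*, was in the table and had a log2 ratio of 1.45.

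Markers of the classical class II producers were also looked for. Of 36 markers of B cells, dendritic cells, monocytes and macrophages and of the costimulation of antigen-presenting cells, 0 were in the table, so none has a level here. With no share over all annotated genes beside it, this count is a description only. Markers of other cells were listed in small numbers. *Ly6g*, a marker of neutrophils and 1 of 4 looked for, was at 0.279 FPKM in WT cells and at 3.51 FPKM in *Areg*-/- cells, a log2 ratio of 3.65. *Cd8a*, 1 of 2 markers of CD8+ T cells looked for, had 2.13 and 3.32 FPKM, a log2 ratio of 0.64. Both were higher in *Areg*-/- cells, as were the members and 69.1% of all listed genes. The part of other cells in the members' values was not tested. Of 8 markers of T cells, among them *Cd4* and *Cd3e*, 0 were listed, so the label of CD4+ T cells cannot be checked by them. Of 6 markers of Th9 cells, *Il9* was listed, with 3.82 FPKM in WT and 1.24 FPKM in *Areg*-/- cells. The *H2-Ab1* value was thus above that of *Il9* in both genotypes. The naïve CD4+ T cells had been sorted before culture, per the methods of the study.

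The members lie together in the MHC on the plus strand of chromosome 17, within 116.3 kb of GRCm38. *H2-DMb1* (ENSMUSG00000079547.3) spans 34153072 to 34160230, *H2-Ob* (ENSMUSG00000041538.15) spans 34238903 to 34245907 and *H2-Ab1* (ENSMUSG00000073421.5) spans 34263209 to 34269418 in the table, counted from 1. The first protein-coding transcript of each has 6 exons in GENCODE, and 0 other annotated genes overlap any of them. Between *H2-DMb1* and *H2-Ob* lie 4 protein-coding genes of the class I pathway that were not in the table, *Psmb9*, *Tap1*, *Psmb8* and *Tap2*, which supply peptides to class I molecules. Unlisted genes thus separate *H2-DMb1* from *H2-Ob*, whereas *H2-Ob* and *H2-Ab1* are direct neighbours among protein-coding genes.

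Within 2 Mb on either side, 8 other genes were listed out of 184 annotated protein-coding ones, 6 of them higher and 2 lower. Within 1 Mb there were 3, of which 1 was higher and 2 lower. The lower genes were the cytokine genes *Tnf*, with 28.1 FPKM in WT and 16.4 FPKM in *Areg*-/- cells, and *Lta*, which encodes lymphotoxin alpha, with 98.1 and 68.9 FPKM. Among the higher ones was the class I gene *H2-Q10*, with 1.38 FPKM in WT and 3.78 FPKM in *Areg*-/- cells, a larger ratio than that of each member. *H2-Q10* belongs to a family of close paralogs, which makes its value uncertain. *Myo1f*, a myosin of immune cells, had a log2 ratio of 1.14, and *Pglyrp2*, *Ddr1*, *Ier3* and *Flot1* had log2 ratios from 0.63 to 0.82. Genes of both directions thus lie in this stretch. On all of chromosome 17, 18 of 22 listed genes were higher, beside 69.1% of all listed genes. The 18 include the members, which were picked for being higher and so raise this share.

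**Figure D4:**
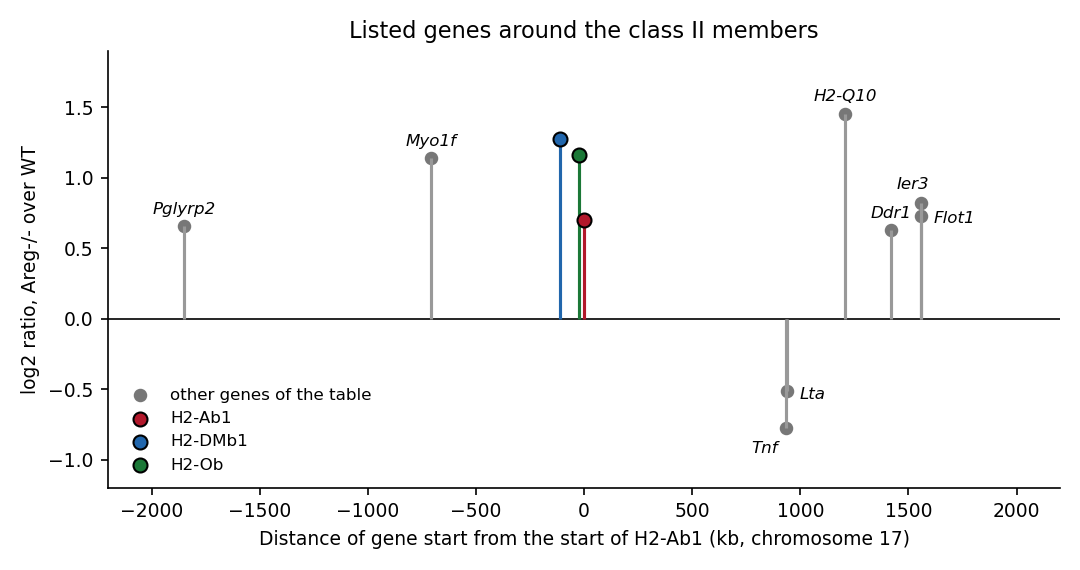
Log2 ratio of *Areg*-/- over WT for each listed gene within 2 Mb of the members, by the distance of its start from the start of *H2-Ab1* in kb; each stem is 1 gene and there are no replicates. The 3 members stand within 116.3 kb and are higher, whereas *Tnf* and *Lta*, at 936.2 and 940.0 kb, are lower.

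The listed genes whose ratio was nearest to that of each member are given by that measure alone, as 2 values per gene allow no other. For *H2-Ab1* they were *Prss2*, *B3gnt3* and *Slc2a3*, with log2 ratios of 0.70, 0.70 and 0.71. For *H2-DMb1* they were *Cxcr4*, *Tnfrsf26* and *Smo*, with 1.27, 1.26 and 1.29, and for *H2-Ob* they were *Tcrg-C2*, *Mapre3* and *Sema4f*, each with 1.15. Their levels differed from those of the members. *Cxcr4*, the receptor of the chemokine CXCL12, was at 6.26 FPKM in WT cells and at 15.1 FPKM in *Areg*-/- cells, nearly the ratio of *H2-DMb1*.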

How the data were processed

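RNA of 2 WT and 2 *Areg*-/- Th9 samples was sequenced. Per the methods of the study, reads were checked with FastQC, aligned with TopHat2 and Bowtie2 to GRCm38, counted with HTSeq-count and compared with Cuffdiff. The authors' deposited FPKM values, 1 per genotype, were used as they stand. Their columns of fold change, test statistic, p and q were not used. A log2 ratio of *Areg*-/- over WT was calculated from these with no pseudocount, and no test was run, as samples have no values of their own. The planned protein comparison was replaced by GENCODE M21 coding sequences, aligned with biopython 1.88. Promoters are from RefSeq. Of 112 symbols in the lists, 111 were in the annotation. The genes named are the members, all listed genes of the lists and of the 2 Mb window, and the 3 genes nearest in ratio to each member. Members and lists were chosen with earlier results of these data known. Calculations were tested on simulated data, in Python 3.11.15 with numpy 2.4.6, pandas 2.3.3 and matplotlib 3.10.9. Alternatives were pseudocounts, centring, other fold, level and window limits, and a looser motif.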

Additional observations from a re-analysis of the deposited data

How the results depend on the processing

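The members were picked for being higher, and a pseudocount cannot turn the direction of a ratio. With log2(FPKM + 1) the log2 ratio was 0.67 for *H2-Ab1*, 0.84 for *H2-DMb1* and 0.80 for *H2-Ob*, and with log2(FPKM + 0.1) it was 0.70, 1.21 and 1.11. After subtraction of the table's median log2 ratio, a shift of 0.62 that is taken over called genes only, it was 0.077, 0.65 and 0.54. Of the 2 members over 2-fold higher, 0 passed with log2(FPKM + 1), 0 after this centring and 0 where 5 FPKM in either genotype was required. These losses follow from the settings, since a pseudocount shrinks low values, centring takes the same amount from every gene and the minimum drops both members. The share of all listed genes that passes was not computed under these settings. A window of 1 Mb around the members held 3 other listed genes in place of 8, with 1 higher and 2 lower in place of 6 and 2. With 1 mismatch allowed in the X box core, 22.3% of promoters, and 6 of the 8 class II genes, held the pair in place of 2.003%. In the order seen in the members, a search added after the data were seen, the pair with the exact core was in 0.271% and that with 1 mismatch in 3.87% of promoters. The counts of listed genes did not change with a minimum of 1 FPKM. No paired analysis was possible because samples have no values of their own here, and for the same reason leaving out each replicate was not run. Depth is unknown from the FPKM values, so no limit by depth was computed.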
